A study of Mus musculus with 6 samples.

Results

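The genes described here are 10 members of the hypoxia response and of glucose and lactate transport, taken by name from a table of 55416 genes measured by RNA-seq in primary mouse chondrocytes. They are Hif1a, Epas1, Egln1, Egln3, Vegfa, Ankrd37, Slc2a1, Slc2a3, Slc16a1 and Slc16a3, and all 10 had enough counts to be among the 15269 genes tested. The chondrocytes were transfected with a scrambled siRNA (siNC, 3 libraries) or with an siRNA against Pkm2 (siPkm2, 3 libraries), and no other allele or agent is named for either group. Both groups shared the same culture, in serum-containing medium without passage, and the same lipid-based transfection. The sample labels give neonatal knee joints as the source, whereas the supplementary methods describe adult mice. The genotype labels of siPkm2 replicates 2 and 3 carry PKM numbers other than that of replicate 1, and all 3 were taken as siPkm2 from their titles. The time between transfection and RNA extraction is not given in the sources used here, nor whether the 3 libraries of a group came from separate animals, so p-values measure only the spread between these libraries.

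Hypoxia-inducible factors (HIF) are transcription factors made of an oxygen-regulated alpha subunit, encoded by Hif1a or Epas1, and a constant beta subunit, encoded by Arnt or Arnt2. In the presence of oxygen, prolyl hydroxylases of the Egln family mark the alpha subunit for destruction through Vhl, so the factor is controlled mainly at the level of protein, which RNA-seq does not measure. Cartilage has no blood vessels, its cells live at low oxygen, and they draw most of their energy from glycolysis, which depends on glucose carriers such as Slc2a1 (GLUT1) and on lactate carriers such as Slc16a1 (MCT1) and Slc16a3 (MCT4). Pkm, the targeted gene, encodes the pyruvate kinase of the last step of glycolysis in these cells.

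Levels are given as CPM, estimated counts scaled to the size of the library with the TMM factors of edgeR, and sets of 3 values run in the order of replicates 1, 2 and 3. Pkm (ENSMUSG00000032294) had 2335, 2746 and 1674 CPM in the siNC libraries against 336, 541 and 309 CPM in the siPkm2 libraries. These are levels of the whole gene, so its splice isoforms Pkm1 and Pkm2 are not told apart. The groups did not overlap, and the log2 fold change of siPkm2 over siNC was -2.51 with an SE of 0.33 (adjusted p = 0.0738, edgeR). In a fit with a block for the replicate number, which sets each siPkm2 library against the siNC library of the same number, it was -2.53 with an SE of 0.13 (adjusted p = 0.00932, edgeR). Library totals lay between 22316996 and 25691029 estimated counts. Replicate 2 of both groups stood apart from the other 4 libraries. The summed level of 10 chondrocyte markers was 10292 and 14351 CPM in the replicate 2 libraries and between 41710.5 and 49281 CPM in the others, with Col2a1, the main cartilage collagen, highest of them in CPM throughout. The summed level of 12 inflammatory genes was 11156 and 11381 CPM in replicate 2 and between 68.0 and 242 CPM elsewhere, and that of 10 interferon-stimulated genes was 1864 and 3470.4 CPM in replicate 2, 58.4 and 85.2 CPM in siNC replicates 1 and 3, and 1139 and 917 CPM in siPkm2 replicates 1 and 3. The interferon sum was thus also higher in siPkm2 than in siNC within each number. With the block, 4 of the 10 interferon-stimulated genes had an adjusted p under 0.05 as higher (edgeR), beside 12.3% of all genes. Without replicate 2, all 10 did, beside 19.8% of all genes. The part of this difference between the siRNAs in the results of the genes described here was not tested. In a bulk library, a smaller number of cells of one kind and less RNA per cell cannot be told apart.

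The siRNAs that define the groups are shown because their seed, bases 2 to 8 of the antisense strand (in capitals), can also pair with other transcripts. The supplement selects the third siPkm2 of those it lists, and no source used here ties a number to the sequenced cultures.
siNC antisense: aCGUGACAcguucggagaatt
siPkm2 #3 antisense: uGUUUCUCcagacagcaugtt
A match to the seed of siPkm2 #3, GAGAAAC, lay in the 3′ untranslated region (the longest one annotated) of 2371 of 13273 tested genes (17.9%). Of the 10 genes, Ankrd37 was the only one with a match, at base 156 of a region of 659 bases, and none held a match to the siNC seed, which occurred in 3.51% of genes. The site of Ankrd37 is given with the match in capitals.
Ankrd37 site: tgtcttggGAGAAACtccactcc

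Promoters were examined because HIF binds DNA at a core written ACGTG or GCGTG. RefSeq windows on GRCm38.p6, of 250 bases before and 50 after the start of a gene, were matched by symbol for 8 of the 10 genes, the others being Epas1 and Slc2a3. A core on either strand, overlapping matches counted separately, was found in 8 of the 9 windows of these genes, beside 43.8% of all 32851 windows, with ACGTG in 19.6% and GCGTG in 32.4%. Vegfa has more than 1 window. The one at the outer start of the gene (chr17:46032328-46032627, minus strand) held no core, whereas the one at an internal start held 2. The windows of Hif1a, Ankrd37 and Slc16a3 also lay wholly inside the span of the gene in GENCODE M21, and so not at its outer start. The windows of the 8 genes were richer in G and C, with a median of 69.0% over 9 windows against 52.7% over all windows, and both cores contain G and C. The stretch of 250 bases before the start is printed for the 2 transporters that rose (values follow), with cores in capitals.
Slc2a1, chr4:119108495-119108744, plus strand: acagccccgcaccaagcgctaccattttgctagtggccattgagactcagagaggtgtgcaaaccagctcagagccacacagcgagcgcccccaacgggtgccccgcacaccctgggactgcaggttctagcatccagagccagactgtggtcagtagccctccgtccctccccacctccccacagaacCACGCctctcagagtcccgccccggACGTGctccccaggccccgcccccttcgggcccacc
Slc16a1, chr3:104638414-104638663, plus strand: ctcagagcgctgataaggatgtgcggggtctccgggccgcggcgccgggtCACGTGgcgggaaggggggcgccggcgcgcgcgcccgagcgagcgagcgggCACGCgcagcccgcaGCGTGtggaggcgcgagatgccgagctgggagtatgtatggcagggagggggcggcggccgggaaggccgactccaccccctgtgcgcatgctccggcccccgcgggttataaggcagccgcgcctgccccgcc
In the Slc2a1 stretch the cores began at positions -61, as CACGC, the reverse complement of GCGTG, and -36, as ACGTG. The Slc16a1 stretch holds a CACGTG at position -200, which reads as ACGTG on both strands, and further cores at positions -149 and -134. A match is a description of the letters and does not show binding.

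When libraries were compared within their replicate number, Slc2a1 (GLUT1) and Slc16a1 (MCT1) rose in siPkm2, to 1.37 and 1.67 times siNC, and Epas1 (HIF-2 alpha) fell, to 0.669 of siNC. Hif1a, both prolyl hydroxylases, Vegfa, Ankrd37, Slc2a3 and Slc16a3 did not pass the same test. No change among the 10 reached 2-fold, and without the pairing none passed the threshold of the study, a fold change over 2 with an adjusted p under 0.05, nor did any other of the 15269 genes (0.0% called, edgeR without a block). At an unadjusted p under 0.05, 2690 genes (17.6%) and none of the 10 passed the same test. The replicate numbers paired the libraries, and with the number as a block 890 genes (5.83%) passed the threshold, again with none of the 10. Without the limit on the fold, 3524 genes (23.1%) had an adjusted p under 0.05, and 3 of the 10 were among them. Over all genes, 12.3% rose and 10.8% fell. That count of 3 in 10 is near the share over all genes. With DESeq2 and the block, 26.9% of all genes and 4 of the 10 passed without a limit on the fold, Hif1a being added, while at the threshold of the study DESeq2 without a block called 2.79% of all genes and none of the 10. The levels of the 2 groups overlapped for each of the 10 genes, whereas 24.3% of all genes had groups that did not overlap. An exact permutation test on the CPM of 3 against 3 libraries, two-sided and unable to go below p = 0.1, gave the 10 genes values between 0.2 and 0.9.

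The 3 calls needed both replicate 1 and replicate 3. With replicate 1 left out, or replicate 3, so that 2 pairs remained, no gene passed (0.0%, edgeR with the block), while 25.0% and 23.1% of all genes and 3 of the 10 had an unadjusted p under 0.05. Slc2a1 was then at 0.36 and 0.48 on the log2 scale (adjusted p = 0.186 and 0.169, edgeR), Slc16a1 at 0.98 and 0.59 (adjusted p = 0.0662 and 0.180, edgeR), and Epas1 at -0.42 and -0.60 (adjusted p = 0.151 and 0.165, edgeR). With replicate 2 left out, 39.1% of all genes and 4 of the 10 passed, 3 as higher beside 19.8% of all genes and 1 as lower beside 19.3%.

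**Figure D1:**
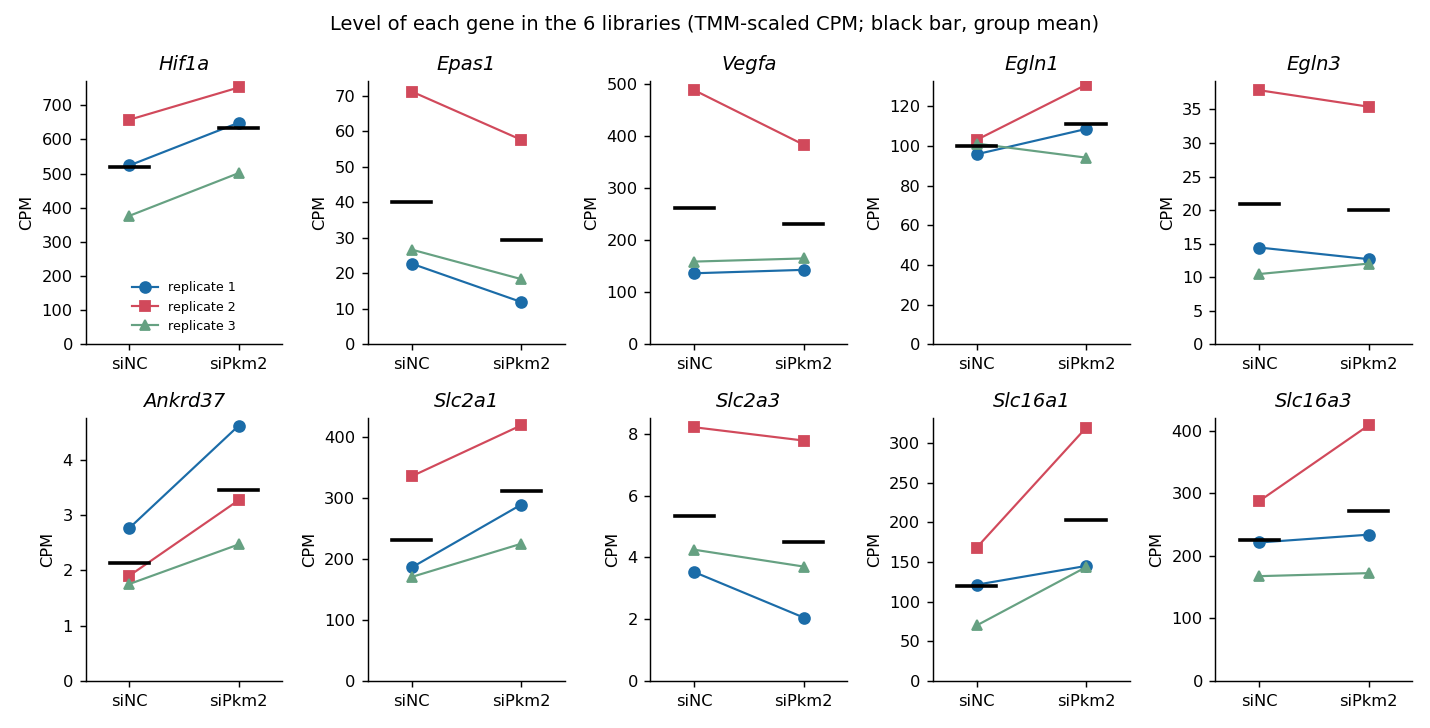
Each panel plots the TMM-scaled CPM of 1 gene (vertical axis, from 0) in siNC and siPkm2, with a line joining the libraries of the same replicate number and a black bar at each group mean (n = 3). The lines of Slc2a1, Slc16a1, Hif1a, Ankrd37 and Slc16a3 slope upward for all 3 numbers, those of Slc16a3 only slightly in numbers 1 and 3. The lines of Epas1 and Slc2a3 slope downward for all 3. The squares of replicate 2 lie well above the rest for Epas1, Vegfa, Egln3 and Slc2a3.

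Hif1a (ENSMUSG00000021109, chromosome 12 from 73901375 to 73947530 on GRCm38) encodes the alpha subunit of HIF-1. Its level was 524, 658 and 376 CPM in siNC and 649, 753 and 502 CPM in siPkm2. Each siPkm2 library lay above the siNC library of its number, by 1.24, 1.14 and 1.33-fold, while the ranges of the groups overlapped. The log2 fold change was 0.29 with an SE of 0.27 (adjusted p = 0.637, edgeR), and with the block 0.31 with an SE of 0.09 (adjusted p = 0.0674, edgeR). Without replicate 2 the blocked value was 0.35 (adjusted p = 0.0229, edgeR), and DESeq2 with the block gave an adjusted p of 0.0231, so whether Hif1a passed depended on the tool and on that replicate.

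Epas1 (ENSMUSG00000024140, chromosome 17 from 86753700 to 86833410) encodes the alpha subunit of HIF-2, a regulator of matrix breakdown in cartilage. It was at 22.7, 71.1 and 26.6 CPM in siNC and at 11.9, 57.5 and 18.3 CPM in siPkm2. The replicate 2 library was the highest of each group, and within every number the siPkm2 library was the lower of the pair, at 0.525, 0.809 and 0.688 of siNC. Without a block the log2 fold change was -0.46 with an SE of 0.70 (adjusted p = 0.791, edgeR). With the block Epas1 fell, by 0.58 on the log2 scale with an SE of 0.14 (adjusted p = 0.0379, edgeR), and without replicate 2 by 0.74 (adjusted p = 0.00767, edgeR).

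The alpha subunits lay on opposite sides of the control within every replicate number. Per length, in TPM (a scale corrected for gene length, on which levels of different genes can be compared), Hif1a exceeded Epas1 28.1, 11.8 and 17.3-fold in siNC replicates 1, 2 and 3. In siPkm2 the ratio was 65.9, 16.2 and 33.6. It was higher in siPkm2 in 3 of 3 pairs, with means of 19.1 ± 8.31 and 38.6 ± 25.2 (SD, n = 3), yet the groups overlapped and an exact permutation test gave p = 0.3 (0.533 after Benjamini-Hochberg adjustment over the 4 ratios computed).

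The partners of the alpha subunits were measured in the same libraries. Arnt, the common beta subunit, was at 81.8, 101 and 84.5 CPM in siNC and at 63.4, 85 and 68.4 CPM in siPkm2. It fell by 0.31 on the log2 scale with the block (SE 0.08, adjusted p = 0.0414, edgeR). Arnt2, its close relative, was at 26.5, 43.9 and 27.9 CPM in siNC and at 8.95, 15.8 and 12.7 CPM in siPkm2, with no overlap of the groups. The blocked log2 fold change of Arnt2 was -1.39 (SE 0.12, adjusted p = 0.0109, edgeR), a larger change than in any of the 10 genes.

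Egln1 (ENSMUSG00000031987, chromosome 8 from 124908587 to 124949324) encodes PHD2, the main oxygen-sensing prolyl hydroxylase. Its level was the steadiest of the 10 across the siNC libraries, at 95.8, 103 and 101 CPM, and it was at 109, 131 and 94.1 CPM in siPkm2. The siPkm2 library was higher in numbers 1 and 2 and lower in number 3, and the blocked log2 difference was 0.14 with an SE of 0.11 (adjusted p = 0.379, edgeR).

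Egln3 (ENSMUSG00000035105, chromosome 12 from 54178981 to 54203860) encodes PHD3, a hydroxylase that is itself induced by HIF. It was at 14.4, 37.9 and 10.5 CPM in siNC and at 12.7, 35.4 and 12 CPM in siPkm2. The replicate 2 libraries stood far above the rest in both groups, and the groups differed little, with a blocked log2 difference of -0.03 and an SE of 0.12 (adjusted p = 0.860, edgeR). In TPM, Egln1 exceeded Egln3 5.23, 2.14 and 7.59-fold in siNC replicates 1, 2 and 3 and 6.74, 2.91 and 6.15-fold in siPkm2, lowest in replicate 2 of each group.

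Vegfa (ENSMUSG00000023951, chromosome 17 from 46016993 to 46032369) encodes the vascular endothelial growth factor that draws vessels into hypoxic tissue and into growth plate cartilage. Its level was 136, 487 and 159 CPM in siNC and 143, 383 and 165 CPM in siPkm2. In CPM the pair differed by 1.05 and 1.04-fold in numbers 1 and 3, and in number 2 the siPkm2 library stood at 0.785 of siNC. In TPM the pair of number 1 was lower in siPkm2, at 117 in siNC and 110 in siPkm2. The blocked log2 difference was -0.08 with an SE of 0.11 (adjusted p = 0.652, edgeR), and without replicate 2 it was 0.052 with an SE of 0.08 (adjusted p = 0.641, edgeR), so the sign of the blocked difference turned on that replicate.

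Ankrd37 (ENSMUSG00000050914, chromosome 8 from 45996902 to 46005707), an ankyrin repeat gene induced by HIF-1, was low, with between 39.9 and 99.0 estimated counts in a library. It was at 2.76, 1.90 and 1.75 CPM in siNC and at 4.61, 3.27 and 2.47 CPM in siPkm2. Each siPkm2 library was above its partner, by 1.67, 1.72 and 1.41-fold, and siPkm2 replicate 3 lay below siNC replicate 1. The blocked log2 difference was 0.68 with an SE of 0.23, which missed the threshold (adjusted p = 0.0859, edgeR). Ankrd37 is also the gene with a seed match of siPkm2 #3. Whether that siRNA was the one used is not known, and an effect of the seed was not tested.

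Slc2a1 (ENSMUSG00000028645, chromosome 4 from 119108711 to 119137983) encodes GLUT1, the basal glucose carrier. It was at 186, 336 and 171 CPM in siNC and at 289, 419 and 225 CPM in siPkm2, and the siPkm2 library was the higher of the pair by 1.55, 1.25 and 1.32-fold in numbers 1, 2 and 3. The groups overlapped, since siNC replicate 2 stood above siPkm2 replicates 1 and 3. Without a block the log2 fold change was 0.43 with an SE of 0.35 (adjusted p = 0.576, edgeR). With the block Slc2a1 rose by 0.45 with an SE of 0.10 (adjusted p = 0.0309, edgeR), and without replicate 2 by 0.51 (adjusted p = 0.00662, edgeR).

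Slc2a3 (ENSMUSG00000003153, chromosome 6 from 122727809 to 122801640) encodes GLUT3, a glucose carrier of high affinity. It was at 3.52, 8.21 and 4.25 CPM in siNC and at 2.05, 7.78 and 3.70 CPM in siPkm2, with fractional estimated counts in every library, so its level is uncertain where reads also match other genes. Hif1a, Slc16a3 and the targeted gene Pkm also had fractional estimated counts in every library, so the same limit holds for them. For Slc2a3, both replicate 2 libraries were the highest of their group. The blocked log2 difference was -0.33 with an SE of 0.22 (adjusted p = 0.307, edgeR). In number 2 the pair was lower in siPkm2 in CPM and higher in TPM, at 3.53 in siNC and 4.53 in siPkm2.

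Slc2a1 made up most of the TPM of the 12 Slc2a genes on the table, between 68.1% and 79.3% in siNC and between 76.8% and 83.6% in siPkm2. Slc2a3 made up between 1.3% and 2.52% in siNC and between 0.468% and 1.66% in siPkm2.

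Slc16a1 (ENSMUSG00000032902, chromosome 3 from 104638668 to 104658462) encodes MCT1, which carries lactate, pyruvate and ketone bodies together with a proton. It was at 121, 168 and 70.1 CPM in siNC and at 145, 319.6 and 144 CPM in siPkm2. The siPkm2 library was higher by 1.19, 1.90 and 2.05-fold within the numbers, and the groups overlapped because siNC replicate 2 exceeded siPkm2 replicates 1 and 3. Without a block the log2 fold change was 0.76 with an SE of 0.44 (adjusted p = 0.424, edgeR). With the block Slc16a1 rose by 0.74 with an SE of 0.17 (adjusted p = 0.0340, edgeR), and without replicate 2 by 0.63 (adjusted p = 0.0287, edgeR). Its change was the largest in size of the 10 with all 3 pairs, but Epas1, at -0.74, exceeded it without replicate 2, and Ankrd37 at 0.76 and Epas1 at -0.60 exceeded its 0.59 without replicate 3.

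Slc16a3 (ENSMUSG00000025161, chromosome 11 from 120948480 to 120960868) encodes MCT4, the lactate exporter of glycolytic cells and a known HIF-1 target. It was at 221, 288 and 168 CPM in siNC and at 234, 409 and 172 CPM in siPkm2. Only number 2 showed a sizeable difference, of 1.42-fold, beside 1.06 and 1.03-fold in numbers 1 and 3, and in TPM the pair of number 3 was lower in siPkm2, at 193 in siNC and 174 in siPkm2. The blocked log2 difference was 0.21 with an SE of 0.12 (adjusted p = 0.247, edgeR), and 0.051 without replicate 2 (adjusted p = 0.652, edgeR).

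The levels of the MCT4 and MCT1 transcripts were also set against each other within each library. In TPM, Slc16a3 exceeded Slc16a1 5.31, 4.66 and 7.30-fold in siNC replicates 1, 2 and 3, a mean of 5.76 ± 1.37 (SD, n = 3). In siPkm2 the ratio was 4.43, 3.45 and 3.39, a mean of 3.76 ± 0.584 (SD, n = 3). Every siPkm2 library lay below every siNC library and the ratio was lower in 3 of 3 pairs, at an exact permutation p of 0.1, the smallest that 3 against 3 can give (0.4 after adjustment over the 4 ratios). As a share of the TPM of 14 Slc16a genes, Slc16a1 took between 8.33% and 14.4% in siNC and between 15% and 19.5% in siPkm2. Slc16a3 took between 60.8% and 67.6% in siNC and between 57.1% and 67.2% in siPkm2.

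**Figure D2:**
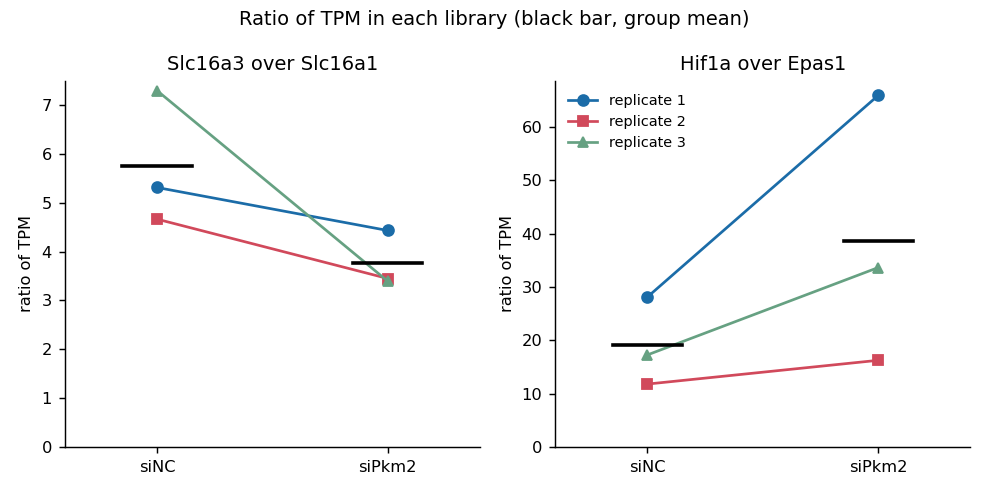
The vertical axes plot the ratio of TPM of Slc16a3 over Slc16a1 (left) and of Hif1a over Epas1 (right) in each library, joined by replicate number, with a black bar at each group mean. The left ratio spans 4.66 to 7.30 in siNC and 3.39 to 4.43 in siPkm2 without overlap, and the right ratio is higher in siPkm2 within each number while the groups overlap.

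The chaperones that bring MCT1 and MCT4 to the cell surface differed from each other. Bsg (basigin), the usual partner of both carriers, was at 1548, 2027 and 1457 CPM in siNC and at 1490.1, 2161 and 1374 CPM in siPkm2, a blocked log2 difference of -0.02 with an SE of 0.10 (adjusted p = 0.921, edgeR). Emb (embigin), an alternative partner of MCT1, was at 188, 351 and 198 CPM in siNC and at 433, 607 and 496 CPM in siPkm2. Emb rose by 1.11 with an SE of 0.13 (adjusted p = 0.0122, edgeR with the block), and its groups did not overlap.

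**Figure D3:**
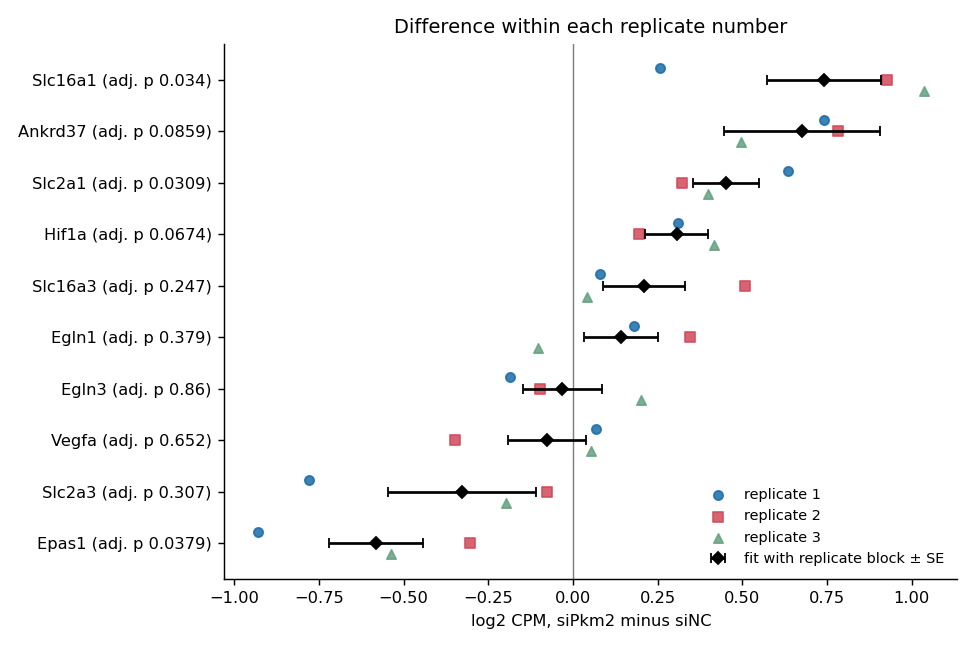
For each of the 10 genes, the horizontal axis gives the log2 difference in CPM of siPkm2 over siNC within replicate numbers 1, 2 and 3, and the diamond with its bar gives the edgeR estimate with the replicate block and its SE, with the adjusted p beside the name. The 3 genes under 0.05 are Slc16a1 at 0.74, Slc2a1 at 0.45 and Epas1 at -0.58.

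Counted over the numbers, 5 of the 10 genes (Hif1a, Ankrd37, Slc2a1, Slc16a1 and Slc16a3) were higher in siPkm2 in CPM within all 3, beside 30.5% of all genes, and 2 (Epas1 and Slc2a3) were lower within all 3, beside 30.6% of all genes, although in TPM number 3 of Slc16a3 and number 2 of Slc2a3 went the other way. The median log2 fold change of the 10 was 0.21 without and 0.18 with the block, beside -0.02 and -0.01 over all genes tested.

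By mean TPM in siNC the 10 genes ran in the order Vegfa at 260.1 ± 205, Slc16a3 at 240.3 ± 59.1, Hif1a at 190.2 ± 62.8, Slc2a1 at 121 ± 54.6, Egln1 at 50.5 ± 5.17, Slc16a1 at 44.6 ± 19.8, Egln3 at 13.7 ± 10.4, Epas1 at 12 ± 8.67, Ankrd37 at 6.14 ± 1.88 and Slc2a3 at 2.79 ± 1.09 (SD, n = 3 each). The ranges of neighbours over the siNC libraries did not overlap at 3 places, and overlapped elsewhere. These places were between Slc2a1 and Egln1, between Slc16a1 and Egln3, and between Ankrd37 and Slc2a3. Within each siNC library, however, Slc16a3 exceeded Hif1a and Hif1a exceeded Slc2a1, while the other overlapping neighbours changed places.

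For the 10 genes other than Ankrd37, the difference of replicate number 2 from the other numbers was larger in size than the blocked difference between the siRNAs. In a test of the replicate number within the same fit, chosen after the libraries of number 2 were seen to stand apart, 8 of the 10 genes had an adjusted p under 0.05 (edgeR, 2 degrees of freedom), beside 26.1% of all genes, and the exceptions were Egln1 and Ankrd37. Epas1 was 3.35 times its mean level of numbers 1 and 3 in number 2 (adjusted p = 0.00555, edgeR), Egln3 2.97 times (adjusted p = 0.00504, edgeR), Vegfa 2.89 times (adjusted p = 0.00530, edgeR) and Slc2a3 2.43 times (adjusted p = 0.0264, edgeR). Each adjusted p given here for the replicate number tests any difference among the 3 numbers and not the excess of number 2 itself. An excess of over 2-fold, together with an adjusted p under 0.05 in that test, was found for these 4 of the 10 genes and for 6.84% of all genes. The other transporters and Hif1a also stood higher in number 2, Slc16a1 at 1.99 times, Slc2a1 at 1.76 times, Slc16a3 at 1.75 times and Hif1a at 1.4 times, with adjusted p values between 0.0132 and 0.0261 (edgeR). The median log2 difference of number 2 from the others was 0.91 over the 10 genes and -0.01 over all genes.

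The 8 genes that passed the test of the replicate number stood higher in number 2. The inflammatory genes described above were also higher there, and the summed chondrocyte markers lower. Egln1, at 1.17 times in number 2, and Ankrd37, at 0.917 times, did not pass. This likeness rests on 1 replicate number. Endothelial and macrophage markers were also higher in replicate 2, with a median log2 difference from the other numbers of 1.16 over the 4 endothelial and 1.97 over the 4 macrophage markers tested, of which 1 and 2 passed the test of the replicate number. The summed level of 8 endothelial markers was 10.7 and 7.24 CPM in replicate 2 and between 3.96 and 5.30 CPM elsewhere, with Pecam1, Cdh5, Tie1 and Emcn under 1 CPM in every library. The summed level of 8 macrophage markers was 75.9 and 62.1 CPM in replicate 2 and between 8.69 and 19.8 CPM elsewhere, mostly from Cd68 and Cd14, while Ptprc, Adgre1, Itgam and C1qa were at 0.44 CPM or less throughout. Flt4, a VEGF receptor of lymphatic endothelium named after its values were seen, was at 19.7 and 11.7 CPM in replicate 2 and between 0.438 and 2.47 CPM elsewhere (adjusted p = 0.0124 for the replicate number, edgeR). Summed osteoblast markers were at 34.7 and 43.7 CPM in replicate 2 and between 81.8 and 423 CPM elsewhere, synovial fibroblast markers ranged from 3259 to 9005 CPM, and muscle markers from 7.55 to 14.5 CPM. The part of these marker levels in the results of the 10 genes was not tested.

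**Figure D4:**
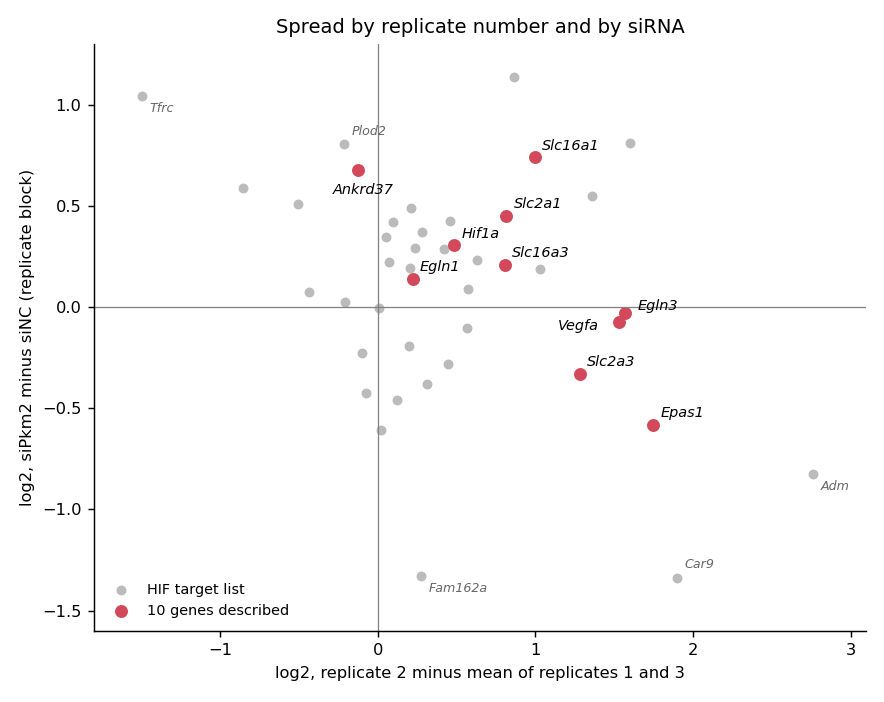
Each point is a gene, with the log2 difference of replicate 2 from the mean of replicates 1 and 3 on the horizontal axis and the log2 difference of siPkm2 from siNC in the fit with the replicate block on the vertical axis. The 10 genes (red) spread from -0.12 to 1.75 across and from -0.58 to 0.74 upward, and Vegfa and Egln3 lie far right at a height near 0, while grey points are the HIF target list.

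The wider pathway was examined by lists of genes that were counted whole, each with the replicate block and no limit on the fold. Of 14 tested regulators of the HIF pathway other than the 10 genes, 3 fell and none rose, beside 10.8% and 12.3% of all genes, and Epo was at 0 in every library. Besides Arnt and Arnt2, Siah1a, a ubiquitin ligase that acts on prolyl hydroxylases, fell by 0.80 (SE 0.14, adjusted p = 0.0203, edgeR). Vhl, Egln2 and Hif1an did not pass. Vhl, the ligase that recognises hydroxylated alpha subunits, had a log2 difference of 0.24 (SE 0.11, adjusted p = 0.155, edgeR). Egln2 (PHD1) had one of -0.09 (SE 0.09, adjusted p = 0.478, edgeR), and Hif1an, the asparagine hydroxylase that blocks the activity of the alpha subunits, one of -0.27 (SE 0.08, adjusted p = 0.0591, edgeR).

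Of 33 further genes known as HIF targets, 6 rose and 6 fell, beside 12.3% and 10.8% of all genes, and 21 did not pass. The median log2 difference of the 33 was 0.19 beside -0.01 over all genes. The genes that fell furthest were Car9, the carbonic anhydrase of the cell surface, and Fam162a, a mitochondrial protein. Car9 was at 86.3, 269 and 98.6 CPM in siNC and at 26.8, 146 and 35.8 CPM in siPkm2, and it fell by 1.34 (SE 0.17, adjusted p = 0.0133, edgeR). Fam162a was at 166, 164 and 105 CPM in siNC and at 62.8, 63.4 and 45.4 CPM in siPkm2, and it fell by 1.33 (SE 0.08, adjusted p = 0.00932, edgeR). Adm, which encodes the vasodilating peptide adrenomedullin, and Ndrg1, a gene of stress responses, fell by 0.82 and 0.61 (adjusted p = 0.0169 and 0.0183, edgeR).
Tfrc, the transferrin receptor that takes up iron, and Plod2, a lysyl hydroxylase of collagen, rose. Tfrc was at 50.5, 18.4 and 74.5 CPM in siNC and at 136, 48.0 and 93.0 CPM in siPkm2, a rise of 1.04 (SE 0.24, adjusted p = 0.0341, edgeR). Plod2 was at 582, 480.3 and 597 CPM in siNC and at 990.2, 906 and 994 CPM in siPkm2, a rise of 0.81 (SE 0.09, adjusted p = 0.0122, edgeR). Adm and Car9 also had the largest differences of replicate 2 among the targets, at 2.76 and 1.90 on the log2 scale.

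**Figure D5:**
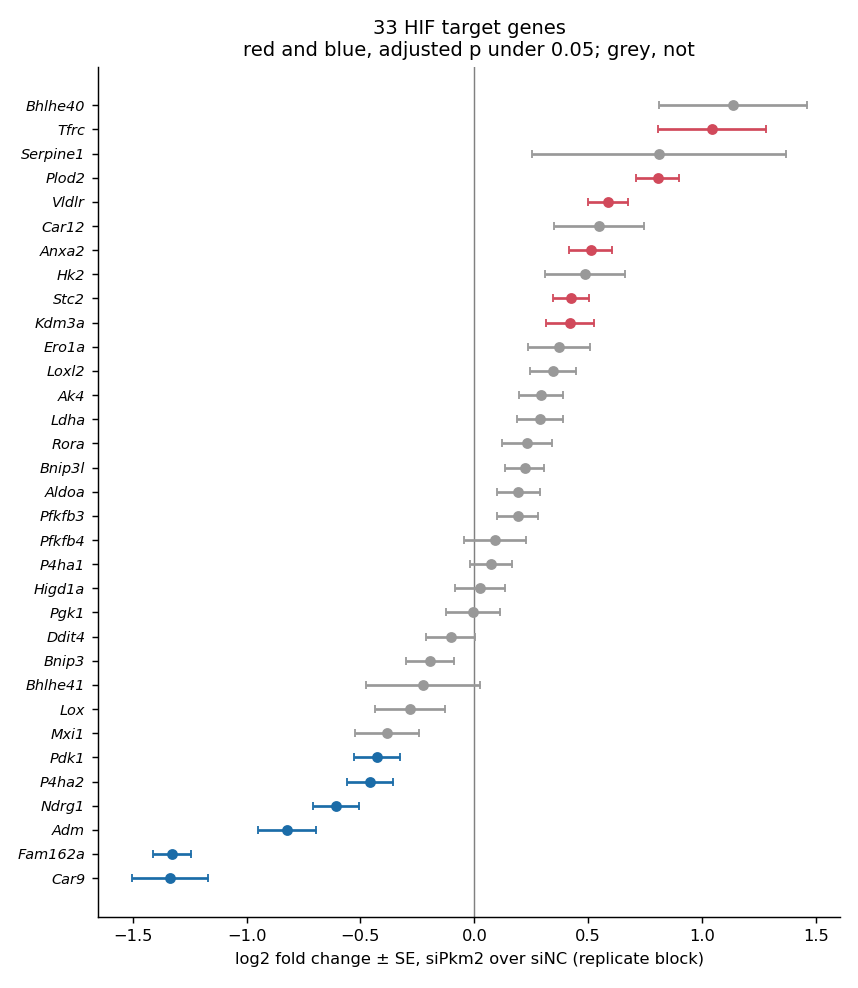
The horizontal axis gives the log2 fold change of siPkm2 over siNC for 33 HIF target genes, from edgeR with the replicate block, with bars of 1 SE. Red points (6 genes, up to 1.04) rose, blue points (6 genes, down to -1.34) fell, and the grey points did not reach an adjusted p of 0.05. In the same fit, 12.3% of all genes rose and 10.8% fell.

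Of 8 tested ligands and receptors of the VEGF system other than Vegfa, 2 rose and 1 fell, beside 12.3% and 10.8% of all genes. Vegfc, a ligand of lymphatic vessels, was at 1.96, 14.4 and 2.76 CPM in siNC and at 6.81, 30.4 and 9.46 CPM in siPkm2, a rise of 1.5 (SE 0.20, adjusted p = 0.0138, edgeR). The co-receptors went opposite ways, since Nrp1 rose by 0.91 (SE 0.11, adjusted p = 0.0132, edgeR) and Nrp2 fell by 1.09 (SE 0.20, adjusted p = 0.0222, edgeR), each without overlap of the groups. Vegfa itself did not pass, as given above.

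Of 9 other genes of glucose transport, none rose and 1 fell, beside 12.3% and 10.8% of all genes. Slc2a12 (GLUT12) fell from 7.81, 8.78 and 12.9 CPM in siNC to 4.20, 6.30 and 4.11 CPM in siPkm2 (log2 difference -1.0, SE 0.26, adjusted p = 0.0455, edgeR). Of 13 other genes of monocarboxylate transport, 2 rose and 1 fell, near the same shares of all genes. Slc16a6, which carries ketone bodies, was at 2.48, 2.18 and 2.06 CPM in siNC and at 7.41, 3.0 and 9.41 CPM in siPkm2, a rise of 1.43 (SE 0.36, adjusted p = 0.0448, edgeR). Emb rose, as above, and Mpc2, a subunit of the mitochondrial pyruvate carrier, fell by 0.41 (SE 0.10, adjusted p = 0.0396, edgeR).
Without replicate 2, a setting chosen after the data were seen, more genes of these lists passed, as they did over all genes (39.1% against 23.1%). Beside 19.8% of all genes higher and 19.3% lower, the HIF pathway list then had 5 genes higher and 4 lower, the targets 13 and 8, the VEGF system 2 and 2, glucose transport 1 and 2, and monocarboxylate transport 5 and 2. Of the 10 genes, 4 then passed, Hif1a, Slc2a1 and Slc16a1 as higher and Epas1 as lower.

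Slc16a1 was taken as the gene with the largest blocked difference over all 3 pairs, and the tested genes whose pattern over the 6 libraries was most like it were Tnfsf15, Nfatc2ip and Hspb2. Likeness was the Euclidean distance between log2 CPM centred on the gene's own mean, with a pseudocount of 0.5, and was 0.352 for Tnfsf15, 0.402 for Nfatc2ip and 0.438 for Hspb2. Tnfsf15 was near the floor, at 0.681, 1.62 and 0.263 CPM in siNC and at 1.26, 3.54 and 1.01 CPM in siPkm2. At such levels the pseudocount shrinks the differences between libraries, so its first place depends on that setting. Its blocked log2 difference was 1.24 (adjusted p = 0.0558, edgeR), beside 0.74 for Slc16a1. Nfatc2ip was at 6.49, 8.98 and 4.29 CPM in siNC and at 8.58, 15.6 and 9.55 CPM in siPkm2.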

How the data were processed

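RNA-seq of 3 siNC and 3 siPkm2 libraries was analysed from 1 deposited table of 55416 genes. It holds estimated counts per library, not normalized by the authors, and TPM values, scaled by the authors within each library. It also holds the authors' own comparison (a fold change, a log2 fold change and p-values), not used here. The aligner and counter are not given in the sources used here. The submitters' processing notes name mm9 and edgeR. Gene positions come from GENCODE M21 on GRCm38, matched by Ensembl identifier. Library totals were between 22316996 and 25691029. Counts were low for Ankrd37 (39.9 to 99.0) and Slc2a3 (44.0 to 203), so the sampling of reads also limits precision for these genes.

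Counts were rounded (between 11.3% and 13.8% of the values of a library were fractional), filtered by filterByExpr, scaled by TMM and tested in R 4.3.3 with edgeR 4.0.16 (quasi-likelihood test, Benjamini-Hochberg over 15269 genes). Alternatives were DESeq2 1.42.0, RLE and upper-quartile factors, other filters, limma 3.58.1 on log2(TPM + 1) and log2(TPM + 0.1), each library left out, and the replicate number as a block. Each SE given with edgeR was computed from its test, as the size of the log2 fold change over the square root of the F statistic. Scripts were tested on simulated data. Same-numbered libraries deviated together across genes (correlations of 0.62, 0.73 and 0.60, others 0.13 or below), so the number was taken to pair them; no source says what it stands for. Libraries of a group were not duplicates. TPM ratios and levels were compared by exact permutation tests.

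The 10 genes and all lists were chosen with earlier results of these data known. All 10 are named. Genes of the HIF, VEGF and transport lists are named at an adjusted p under 0.05 with the block and 1 direction in all 3 numbers, at most 6 per list, and Arnt, Vhl, Egln2, Hif1an and Bsg in any case.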

Additional observations from a re-analysis of the deposited data

How the results depend on the processing

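At a fold over 2 and an adjusted p under 0.05, 0 genes were called by edgeR without a block, and 890 with the replicate block, 430 by DESeq2's Wald test, 1017 by DESeq2 with the block, 9 with no filter on low counts, 3 with upper-quartile factors, 3 with at least 10 counts in every library and 1 by limma at either pseudocount. Without siNC replicate 2 there were 105, and the range with 1 library left out was 0 to 105. With no limit on the fold, the block gave 3524 genes and 3 of the 10, DESeq2 with the block 4 of the 10, and the block without replicate 2 gave 5941 and 4 of the 10. Without replicate 1 or replicate 3 the block, left with 2 pairs, called 0 genes, so the range was 0 to 5941 genes and 0 to 4 of the 10. The 3 calls of Slc2a1, Slc16a1 and Epas1 were therefore lost without replicate 1 or without replicate 3. The cause was not tested.

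The median log2 fold change of the 10, 0.21 without a block, lay between -0.062 (without siPkm2 replicate 2) and 0.55 (without siNC replicate 2) with 1 library left out, at 0.10 on log2(TPM + 1) and 0.10 on log2(TPM + 0.1), and between 0.051 (without replicate 2) and 0.26 with the block and 1 number left out. Pkm lay between -2.80 and -2.34 with 1 library left out, and passed without siNC replicate 2 (-2.34, adjusted p = 0.0495, edgeR). It also passed with the block (-2.53), with the block and 1 number left out in 1 of 3 cases (-2.63 to -2.39), by DESeq2 (-2.50) and by DESeq2 with the block (-2.52). The sign turned without siNC replicate 2 for Epas1 (0.25), Vegfa (0.65), Egln3 (0.69) and Slc2a3 (0.22). It also turned without siPkm2 replicate 1 for Vegfa (0.07), Egln3 (0.18) and Slc2a3 (0.11), without siPkm2 replicate 3 for Vegfa (0.02) and Egln3 (0.21), without siPkm2 replicate 2 for Slc16a3 (-0.15), and with the block for Vegfa without replicate 2 (0.052) and Egln3 without replicate 1 (0.042). None of these values had passed the test. With 1 library left out, the ranges were -1.41 to 0.25 for Epas1, -0.76 to 0.65 for Vegfa, -0.76 to 0.69 for Egln3, -0.88 to 0.22 for Slc2a3 and -0.15 to 0.51 for Slc16a3. Hif1a, Egln1, Ankrd37, Slc2a1 and Slc16a1 kept a positive sign under every alternative run, and the block changed no call of a gene among the 10 beyond those given.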

Other observations

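Among genes of the wider lists that fall outside the naming rule, Txnip and Hif3a were chosen after their values were seen. Txnip encodes an arrestin-like protein that responds to glucose and draws GLUT1 from the cell surface. In siNC it had 638, 1216 and 597 CPM, against 353, 1109.9 and 421 CPM in siPkm2, in the order of the replicate numbers, the opposite side of the control from Slc2a1 in each number. The log2 difference with the block was -0.50 with an SE of 0.15, which missed the threshold (adjusted p = 0.0702, edgeR), and without replicate 2 it was -0.69 (adjusted p = 0.00443, edgeR). Hif3a, another alpha subunit, with forms that restrain the others, was low, at 0.360, 2.14 and 0.963 CPM in siNC and at 2.10, 2.92 and 2.65 CPM in siPkm2. Its log2 difference with the block was 1.36 with an SE of 0.45 (adjusted p = 0.0813, edgeR), and without replicate 2 it was 1.91 (adjusted p = 0.0152, edgeR).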
